A study of Homo sapiens with 12 samples.

Results

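Natural antisense RNAs are transcribed from the strand opposite to another gene, and human gene nomenclature gives many of them the symbol of that gene with the ending -AS and a number. The antisense RNAs described here were all 145 rows of the expression table whose symbol ends in this way, of 4918 genes in all. For 140 of them the table also held the gene named by the symbol without its ending, which is called the sense gene here (137 different genes, since a few have more than 1 antisense RNA). The other 5, ADORA2A-AS1, BZRAP1-AS1, CDKN2B-AS1, CRYM-AS1 and F11-AS1, had no such row. The symbols in the table began with A1BG and ended with FAM46B, and later ones were not analysed here.

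RNA was sequenced from A375, an established human melanoma cell line, in 4 groups of 3 samples, all collected after 24 h: control cells labelled as untreated, cells given SB-3CT (an inhibitor of the matrix metalloproteinases MMP2 and MMP9), cells given interferon gamma (IFN-γ, the cytokine that induces PD-L1), and cells given SB-3CT+IFN-γ. The study asked how inhibition of these proteases bears on the response to IFN-γ, of which PD-L1 is part. The values are log2(FPKM + 1), where FPKM stands for fragments counted over each kilobase of a transcript and scaled to the depth of the sample, so levels can be set side by side between genes of different length. The IFN-γ label held in the data, since CD274, the gene of PD-L1, rose from 0.543 ± 0.105 to 21.7 ± 2.32 FPKM (SD, n = 3) and the chemokine CXCL10, near 0 without it, stood at 81.7 ± 3.97 FPKM. Of 8 melanocytic markers 6 exceeded a mean of 1 FPKM, but not DCT or CAPN3. All 4 markers of undifferentiated melanoma did so too (AXL, EGFR, CDH2 and CAV1). No T cell, B cell or endothelial marker in the table did, and CD68, CD33, CLDN4 and ACTA2 did among markers of other cell types. Sequencing depth, known only relative to the controls, lay between 87.1% and 150.2% of their mean. The labels do not say whether the 3 samples of a group came from separate cultures, so the p-values measure the spread between these samples, which may be technical.

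Antisense RNAs are mostly long non-coding RNAs. Some are read divergently from a promoter they share with the sense gene, and others cross its exons or introns, and several are known to raise or lower the output of the gene they overlap while others act elsewhere or have no known role. For reading these values their main limit is strand. The library protocol names no strand-specific step and the counting names no strand setting, so reads from an exon shared by both strands cannot be told apart. In GENCODE annotation on hg19, 143 of the 145 antisense RNAs were found, 108 under the symbol of the table and 35 under a newer one, and 20 of these are now named -DT, for divergent transcript. Of the 140 pairs, 79 shared exon bases with the sense gene, 36 overlapped its body but not its exons, 21 lay divergently beside it without overlap, 1 had another arrangement and 3 could not be placed. In 42 pairs the start sites lay within 1000 bases of each other on opposite strands. Counting every annotated gene on either strand, 97 of the 143 had exon bases in the exons of another gene, with a median of 6.53% of their exon bases.

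The antisense RNAs were low. Over the 12 samples 35 of 145 (24.1%) had a mean above 1 FPKM, against 98 of the 137 sense genes (71.5%) and 3177 of all 4918 genes (64.6%). The median of their mean levels was 0.137 FPKM, against 4.52 FPKM for the sense genes and 3.44 FPKM for all genes. Above 0 in every sample were 71 of the 145 (49.0%, against 80.9% of all genes). At a limit of 0.5 FPKM 48 would count as present, at 2 FPKM 23, at 5 FPKM 10 and at 10 FPKM 3. The number above 1 FPKM by group mean was 33 in the controls, 34 with SB-3CT, 32 with IFN-γ and 36 with SB-3CT+IFN-γ, with 30 above it in all 4 groups and 39 in at least 1 group. The RNAs nearest to the limit were ENO1-AS1 at 1.00 and ADNP-AS1 at 1.03 FPKM above it, and CDC37L1-AS1 at 0.907 and DARS-AS1 at 0.862 FPKM below it. Their levels scattered widely between samples, as with ENO1-AS1, which was 2.00, 2.11 and 0.272 FPKM in the 3 controls.

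In 113 of the 140 pairs the sense gene was the more abundant member, with a median ratio of sense to antisense of 21.3 over all pairs. In the other 27 the antisense RNA was higher, and in 17 of these it exceeded 1 FPKM. For part of them A375 cells held the antisense RNA while the gene it is named for was near 0.

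**Figure D1:**
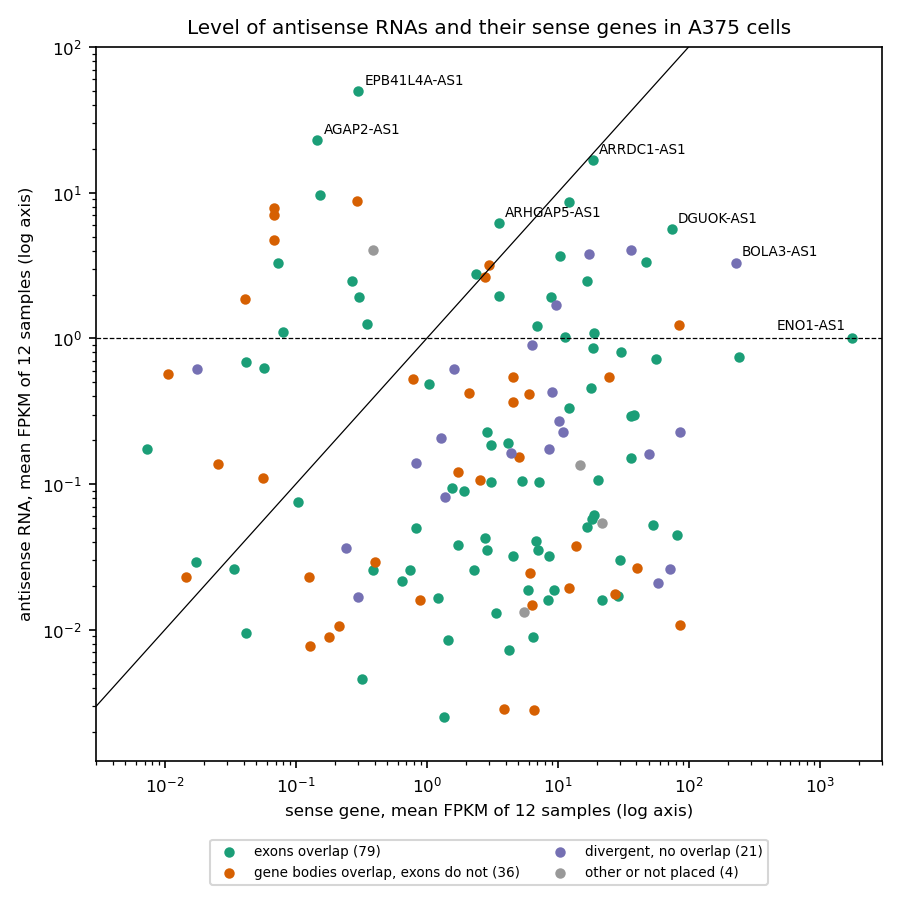
Mean FPKM over 12 samples of each antisense RNA (vertical axis, logarithmic) against its sense gene (horizontal axis, logarithmic), 1 point per pair and coloured by arrangement in the genome. The diagonal marks equal levels and the dashed line 1 FPKM, and 27 of 140 points lie above the diagonal, with EPB41L4A-AS1 and AGAP2-AS1 at its upper left.

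The highest antisense RNA was EPB41L4A-AS1, a host of a small nucleolar RNA, with a mean of 49.8 FPKM against 0.299 FPKM for EPB41L4A, a gene of the band 4.1 family of cytoskeletal proteins. AGAP2-AS1 stood at 22.9 FPKM and AGAP2, a GTPase-activating protein of the Arf family, at 0.146 FPKM. ATP2A1-AS1 (9.59 FPKM) is named for ATP2A1, the calcium pump of fast skeletal muscle (0.153 FPKM). ATP6V1B1-AS1 (7.83 FPKM) is named for ATP6V1B1, a proton pump subunit of kidney and inner ear (0.0687 FPKM). DLGAP1-AS2 (6.98 FPKM) is named for DLGAP1, a scaffold protein of neuronal synapses (0.0684 FPKM), and ELFN1-AS1 (8.72 FPKM) for ELFN1, which also acts at synapses (0.292 FPKM). The sense genes of the last 4 are known from muscle, kidney or neurons, and all 4 were below 0.3 FPKM in this melanoma line.

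The remaining 4 of the 10 highest sat beside genes that the cells expressed. ARRDC1-AS1 (16.8 FPKM) was about as abundant as ARRDC1, an arrestin-domain protein (18.6 FPKM). EML2-AS1 stood at 8.67 FPKM and EML2, a microtubule-associated protein, at 12.2 FPKM. ARHGAP5-AS1 (6.18 FPKM) exceeded ARHGAP5, a GTPase-activating protein (3.55 FPKM). DGUOK-AS1 (5.63 FPKM) was far below DGUOK, a mitochondrial kinase of deoxyguanosine (74.3 FPKM). On hg19, EPB41L4A-AS1 lies at 111496223 to 111500515 on the plus strand of chromosome 5, AGAP2-AS1 at 58120054 to 58122139 on the plus strand of chromosome 12, ATP6V1B1-AS1 at 71168947 to 71175740 on the minus strand of chromosome 2 and EML2-AS1 at 46144752 to 46146098 on the plus strand of chromosome 19. How far these values can be read as the antisense RNA alone differs from gene to gene. EML2-AS1 has 94.98% of its exon bases inside exons of EML2. AGAP2-AS1 lies wholly inside exons of other annotated genes, and ATP6V1B1-AS1 (78.8%), EPB41L4A-AS1 (54.3%) and ATP2A1-AS1 (49.1%) do so for much of their length. For AGAP2-AS1 91.9% and for ATP6V1B1-AS1 78.8% of the exon bases lie in exons of another gene on the same strand. For EMC3-AS1, named below, this share is 26.2%. Knowledge of the strand would not separate such reads. ARHGAP5-AS1 shares 16.5%, DGUOK-AS1 3.37% and ARRDC1-AS1 0.986% of its exon bases, while DLGAP1-AS2 and ELFN1-AS1 share none.

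Changes were tested with limma on the log2(FPKM + 1) scale between 3 samples and 3, with Benjamini-Hochberg adjustment over all 4918 genes, and a change was called at an adjusted p-value below 0.05. Because of the added 1, changes of weakly expressed genes come out too small, which touches most antisense RNAs. Of the 145 antisense RNAs 35 (24.1%) were called in at least 1 of the 4 comparisons, against 61.4% of all genes. Among those above 1 FPKM the shares were 20 of 35 (57.1%) and 80.7%. ATP6V1B1-AS1 and EML2-AS1 were called in all 4 comparisons. The 4 comparisons share samples, so calls in several of them are not independent.

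**Figure D2:**
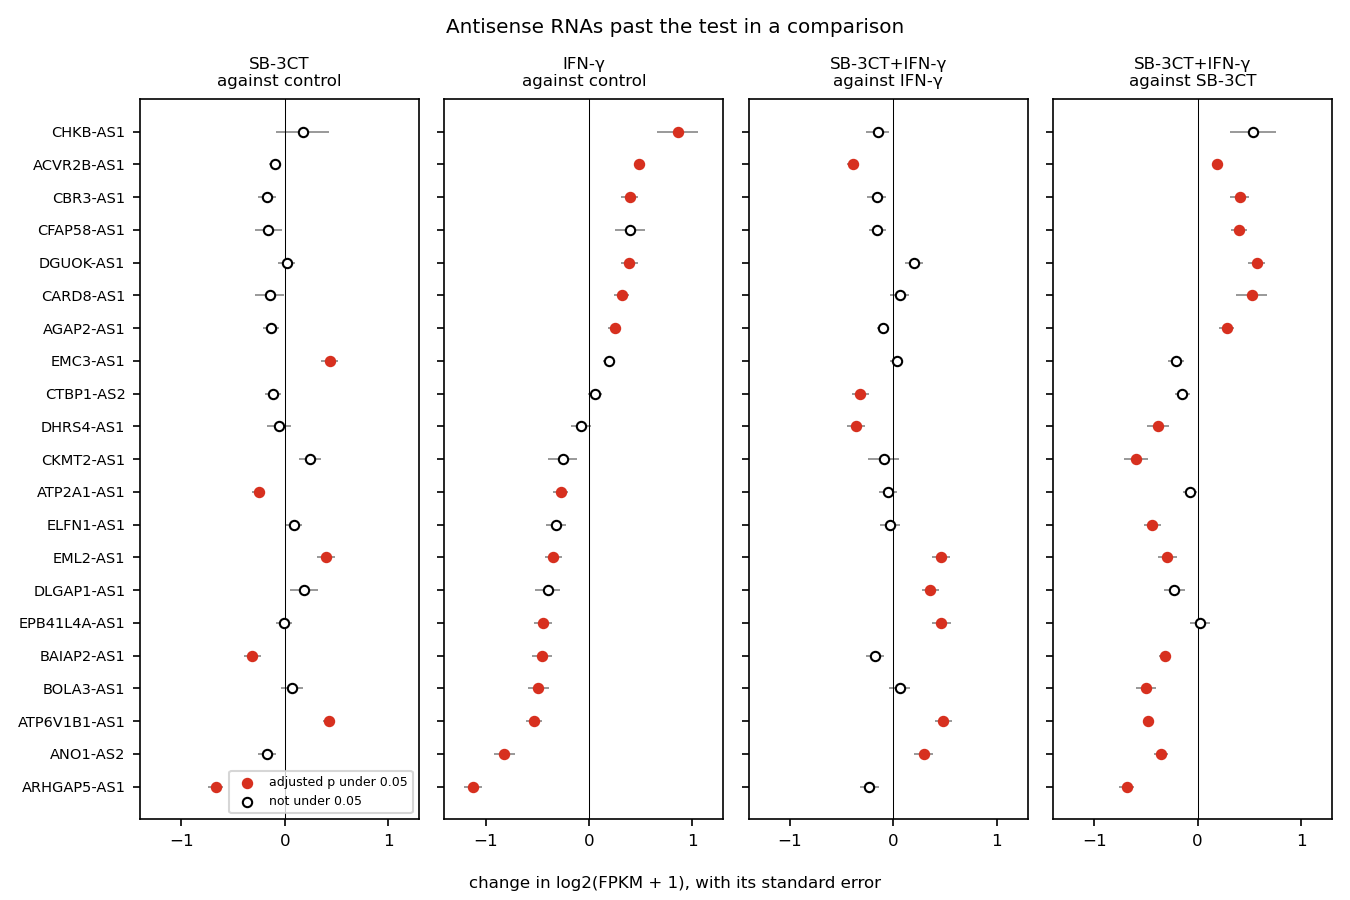
Change in log2(FPKM + 1) with its standard error (horizontal axes) in each of the 4 comparisons, for the 21 antisense RNAs above 0.5 FPKM that were among the largest rises or falls of a comparison or of the interaction. Filled points had an adjusted p-value below 0.05, and ARHGAP5-AS1 at the bottom and CHKB-AS1 at the top bound the changes with IFN-γ.

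The comparison of IFN-γ with control asked which antisense RNAs follow the cytokine. IFN-γ changed 18 of the 145, with 8 higher and 10 lower, or 12.4% against 19.5% of all genes tested (8.46% higher and 11.0% lower). Above 1 FPKM 13 of 35 changed, 4 higher and 9 lower, where 25.7% of all genes at that level did. The median change of the 35 was -0.17, against -0.04 for all genes above 1 FPKM, while over all 145 it was 0.00, with 68 above 0. The samples of both groups did not overlap for 27 of the 145, 11 higher and 16 lower, against 36.9% of all genes (15.0% higher and 22.0% lower). Without control 1, 2 or 3 or IFN-γ 3 the count of calls was 9, 7, 10 and 9. The sense genes called fell too, from 29 to 16, 17, 16 and 16. The shares of all genes called with a sample left out are not given here or below, so such counts have no background. The calls of ARHGAP5-AS1, ANO1-AS2, ATP6V1B1-AS1 and ACVR2B-AS1 held with any sample left out, and those of the other named RNAs were each lost without at least 1 control or IFN-γ sample, with adjusted p-values of up to 0.148 (ATP2A1-AS1).

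ARHGAP5-AS1 had the largest fall. It lies on the minus strand of chromosome 14 (hg19, 32544152 to 32545999), and its start is 679 bases from that of ARHGAP5, which runs the other way. Its level was 9.93, 11.8 and 10.03 FPKM in the controls, 6.27, 6.38 and 6.18 FPKM with SB-3CT, 4.30, 4.59 and 4.05 FPKM with IFN-γ, and 3.88, 3.23 and 3.47 FPKM with SB-3CT+IFN-γ. The groups did not overlap, and every treated sample lay below every control. The change with IFN-γ was -1.12 ± 0.08 (SE, adjusted p = 0.00047), and its call held under every alternative tried for it. ARHGAP5 itself was 5.03, 4.998 and 4.90 FPKM in the controls and 4.46, 3.54 and 4.63 FPKM with IFN-γ, a change of -0.20 ± 0.09 (SE) that was not called (adjusted p = 0.20). The sequence around the start of ARHGAP5-AS1 is shown because both genes of this pair start close together and the antisense RNA alone was called with IFN-γ. It comes from RefSeq on GRCh38.p14 (chr14:32076650-32076949, minus strand), reads from 250 bases before the start to 50 bases after it, and has the bases from the start on in capitals.
ARHGAP5-AS1: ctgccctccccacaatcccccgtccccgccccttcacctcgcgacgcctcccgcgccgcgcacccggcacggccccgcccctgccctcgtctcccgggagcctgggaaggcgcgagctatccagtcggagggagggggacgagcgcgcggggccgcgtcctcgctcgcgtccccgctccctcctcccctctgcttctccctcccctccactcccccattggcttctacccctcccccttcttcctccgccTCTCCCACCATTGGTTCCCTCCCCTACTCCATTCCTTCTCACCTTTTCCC

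ANO1-AS2, now listed as an intergenic RNA and lying in the body of the chloride channel gene ANO1 without sharing its exons, fell with IFN-γ by 0.82 on the log2 scale (SE 0.10, adjusted p = 0.0032). Its level was 4.89, 3.96 and 4.09 FPKM in the controls and 2.29, 1.80 and 1.94 FPKM with IFN-γ, without overlap. ANO1 fell as well, from 3.88, 4.04 and 3.95 FPKM to 2.35, 2.03 and 2.33 FPKM, a change of -0.62 (adjusted p = 0.0025). ATP6V1B1-AS1 fell by 0.53 (adjusted p = 0.0062), from 8.29, 7.84 and 7.34 FPKM to 5.61, 4.79 and 4.92 FPKM, and ATP6V1B1 stayed near 0. BOLA3-AS1 fell by 0.49 (adjusted p = 0.020), BAIAP2-AS1 by 0.45 (0.023), EPB41L4A-AS1 by 0.44 (0.015), DLGAP1-AS2 by 0.39 (0.016), EML2-AS1 by 0.35 (0.032) and ATP2A1-AS1 by 0.27 (0.049). The calls of ATP2A1-AS1 and EPB41L4A-AS1 were lost under median ratio scaling (adjusted p = 0.15 and 0.053). Of the sense genes of these 9, ANO1 was the one called with its antisense RNA.

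CHKB-AS1 had the largest rise. Its level was 2.24, 0.957 and 1.72 FPKM in the controls and 3.09, 4.18 and 3.85 FPKM with IFN-γ, so the groups did not overlap although the controls differed among themselves by over 1 FPKM. The change was 0.86 ± 0.20 (SE, adjusted p = 0.029). CHKB, a choline kinase whose reaction starts a route to phosphatidylcholine, rose by 0.47 (adjusted p = 0.023), from 1.79, 2.36 and 1.94 FPKM to 3.54, 2.94 and 3.07 FPKM, a call lost without control 1 or 3 or IFN-γ 1 or 3 (adjusted p up to 0.0854). In RefSeq the start sites of this pair lie 177 bases apart and face away from each other. The window of CHKB-AS1 (GRCh38.p14, chr22:50582776-50583075, plus strand) therefore holds both, and the 178 bases from the start of one to the start of the other, both included, are in capitals.
CHKB-AS1: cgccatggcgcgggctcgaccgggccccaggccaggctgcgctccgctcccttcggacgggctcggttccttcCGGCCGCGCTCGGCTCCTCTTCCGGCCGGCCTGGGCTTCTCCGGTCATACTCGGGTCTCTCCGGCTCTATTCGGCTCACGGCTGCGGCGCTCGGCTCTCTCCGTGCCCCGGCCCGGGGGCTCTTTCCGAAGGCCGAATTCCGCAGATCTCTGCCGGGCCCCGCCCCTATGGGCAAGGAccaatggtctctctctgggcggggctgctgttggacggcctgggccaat

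The other rises above 1 FPKM were those of DGUOK-AS1 (0.39, adjusted p = 0.021), CARD8-AS1 (0.31, adjusted p = 0.031) and AGAP2-AS1 (0.25, adjusted p = 0.036). DGUOK-AS1 was 4.56, 4.50 and 4.41 FPKM in the controls and 5.49, 6.71 and 6.44 FPKM with IFN-γ. DGUOK fell in the same comparison, by 0.26 (adjusted p = 0.047), which made this the single pair of opposite calls. The call of DGUOK ended under both other scalings and without control 2 or 3 or any IFN-γ sample (adjusted p up to 0.144), and that of DGUOK-AS1 under quantile normalization (0.053). CARD8, an inflammasome sensor gene whose start lies 271 bases from that of CARD8-AS1, changed by -0.12 (adjusted p = 0.57). Below 1 FPKM, ACVR2B-AS1 rose from 0.414, 0.329 and 0.421 FPKM to 0.984, 0.844 and 1.00 FPKM (0.48 ± 0.05, SE, adjusted p = 0.0019), while ACVR2B, an activin receptor, changed by 0.02 (adjusted p = 0.85). CBR3-AS1 rose by 0.39 (adjusted p = 0.022), with CBR3, a carbonyl reductase, rising by 1.68 from 12.4, 13.6 and 13.0 FPKM to 43.2, 42.2 and 46.8 FPKM. CBR3-AS1 has 14.5% of its exon bases in exons of other genes.

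AGAP2-AS1 was 20.5, 22.7 and 21.8 FPKM in the controls and 24.3, 27.3 and 26.2 FPKM with IFN-γ, without overlap, but its call was lost under median ratio scaling (adjusted p = 0.057) and quantile normalization (0.086). Promoter windows of 300 bases were found in RefSeq for 111 of the antisense RNAs and 117 of the sense genes. Those of the antisense RNAs held a median of 21 CG dinucleotides, against 28 in those of the sense genes and 14 in all 27305 human promoters, and 20 of the 111 windows held the start of the sense gene too.

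The comparison of SB-3CT with control asked what the inhibitor does on its own. It changed 7 of the 145 antisense RNAs, 3 higher and 4 lower, or 4.83% against 12.2% of all genes tested (5.37% higher and 6.87% lower). Above 1 FPKM 6 of 35 changed (17.1%), and so did 17.2% of all genes at that level. ARHGAP5-AS1 fell by 0.67 ± 0.08 (SE, adjusted p = 0.0060), and here ARHGAP5 fell by nearly the same amount, 0.68 ± 0.13 (SE, adjusted p = 0.023), from 5.03, 4.998 and 4.90 FPKM to 3.58, 2.40 and 2.34 FPKM. The call of ARHGAP5 was lost with any 1 control, SB-3CT 2 or SB-3CT 3 left out (adjusted p up to 0.0979), while that of ARHGAP5-AS1 held.

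ATP6V1B1-AS1 rose with SB-3CT to 10.6, 10.8 and 11.2 FPKM (0.43 ± 0.06, SE, adjusted p = 0.011), above every control. EML2-AS1 rose to 11.5, 10.1 and 12.1 FPKM from 8.79, 8.44 and 7.45 FPKM (0.40 ± 0.09, SE, adjusted p = 0.030), and EML2, whose exons hold most of this RNA, rose by 0.32 (adjusted p = 0.018), a call lost with any 1 control or SB-3CT 2 left out (adjusted p up to 0.0781). EMC3-AS1 rose from 0.816, 0.964 and 0.986 FPKM to 1.36, 1.76 and 1.69 FPKM (0.44 ± 0.09, SE, adjusted p = 0.025), together with EMC3, a subunit of the complex that inserts membrane proteins in the endoplasmic reticulum (0.22, adjusted p = 0.027). The call of EMC3 was lost with quantile normalization and with any 1 control, SB-3CT 2 or SB-3CT 3 left out (adjusted p up to 0.0956). BAIAP2-AS1 (-0.31, adjusted p = 0.047) and ATP2A1-AS1 (-0.25, adjusted p = 0.048) were close to the threshold and lost the call under both other scalings. The fourth fall, DEPDC1-AS1 (-0.50, adjusted p = 0.038, lost with any sample left out), lay below 0.5 FPKM and is named here after its value was seen. The samples did not overlap for 15 of the 145, 5 higher and 10 lower, against 33.9% of all genes (14.2% higher and 19.7% lower). ARHGAP5-AS1 alone among the named RNAs kept its call with any sample left out (adjusted p at most 0.047). The count of calls was 2, 2 and 1 without control 1, 2 and 3, 1 without SB-3CT 2 or 3, and 9 without SB-3CT 1. The sense genes called, 26 with all samples, numbered 4, 2 and 1 without control 1, 2 and 3. They numbered 1 and 2 without SB-3CT 2 and 3, and 39 without SB-3CT 1.

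The comparison of SB-3CT+IFN-γ with IFN-γ asked what the inhibitor adds in stimulated cells. It changed 13 of the 145 antisense RNAs, 6 higher and 7 lower, or 8.97% against 37.9% of all genes tested. Among all genes the calls ran mostly one way, with 6.41% higher and 31.5% lower, and the sense genes followed them with 6 higher and 60 lower of 137. Above 1 FPKM 5 of 35 antisense RNAs were higher and 2 lower, against 9.22% higher and 42.7% lower of all genes at that level. The median change of the 35 was 0.00, against -0.26 for the sense genes and -0.20 for all genes at that level. This shift of all genes makes the split depend on scaling, and under median ratio scaling it was 11 higher and 2 lower for the antisense RNAs and 17 higher and 34 lower for the sense genes. With quantile normalization it was 14 higher and 1 lower, and 12 higher and 28 lower. The shares of all genes called under these scalings are not given here or in the passages below, so such counts stand without a background. The samples did not overlap for 27 of the 145, 9 higher and 18 lower, against 49.0% of all genes (9.35% higher and 39.6% lower). Without SB-3CT+IFN-γ 2 or 3 the count of calls was 7.

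Several RNAs that IFN-γ had lowered stood higher again when SB-3CT was given with it. The same IFN-γ samples serve both comparisons, so low values in them favour a fall there and a rise here. ARHGAP5-AS1, BOLA3-AS1, BAIAP2-AS1, DLGAP1-AS2 and ATP2A1-AS1, also lowered by IFN-γ, were not called here. ATP6V1B1-AS1 and EML2-AS1 rose with SB-3CT in cells without IFN-γ too. EPB41L4A-AS1 was 34.1, 42.0 and 40.6 FPKM with IFN-γ and 58.9, 51.9 and 51.1 FPKM with SB-3CT+IFN-γ, a rise of 0.46 ± 0.09 (SE, adjusted p = 0.0073). The groups did not overlap, and the combined level was near that of the controls (50.9, 53.6 and 54.9 FPKM). ATP6V1B1-AS1 rose by 0.48 (adjusted p = 0.0047), to 7.20, 8.06 and 7.35 FPKM. EML2-AS1 rose by 0.46 (adjusted p = 0.0063), from 6.35, 5.73 and 6.66 FPKM to 8.31, 8.73 and 9.87 FPKM, while EML2 changed by 0.05 (adjusted p = 0.74). DLGAP1-AS1, which did not pass the test with IFN-γ (-0.40, adjusted p = 0.068), rose by 0.36 (adjusted p = 0.014). ANO1-AS2 rose by 0.29 (adjusted p = 0.043), and ANO1 fell by 0.26 in the same comparison (adjusted p = 0.039), a fall that was absent under quantile normalization (0.013).

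The falls were led by ACVR2B-AS1, which went from 0.984, 0.844 and 1.00 FPKM with IFN-γ to 0.557, 0.452 and 0.441 FPKM with SB-3CT+IFN-γ (-0.39 ± 0.06, SE, adjusted p = 0.0033), without overlap and close to the controls. ACVR2B fell alongside by 0.38 (adjusted p = 0.0038). DHRS4-AS1, named for a retinal reductase gene with close copies beside it that could split reads, fell by 0.36 (adjusted p = 0.017), and CTBP1-AS2, read from near the start of the corepressor gene CTBP1, by 0.32 (adjusted p = 0.018). Both calls were lost under median ratio scaling (adjusted p = 0.15 and 0.26). With any sample left out the calls of EPB41L4A-AS1, ATP6V1B1-AS1, EML2-AS1 and ACVR2B-AS1 held. That of DLGAP1-AS1 was lost without IFN-γ 3 or SB-3CT+IFN-γ 2, those of CTBP1-AS2 and DHRS4-AS1 without SB-3CT+IFN-γ 2 or 3, that of DHRS4-AS1 also without IFN-γ 1, and that of ANO1-AS2 without any sample but IFN-γ 1 (adjusted p up to 0.124).

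**Figure D3:**
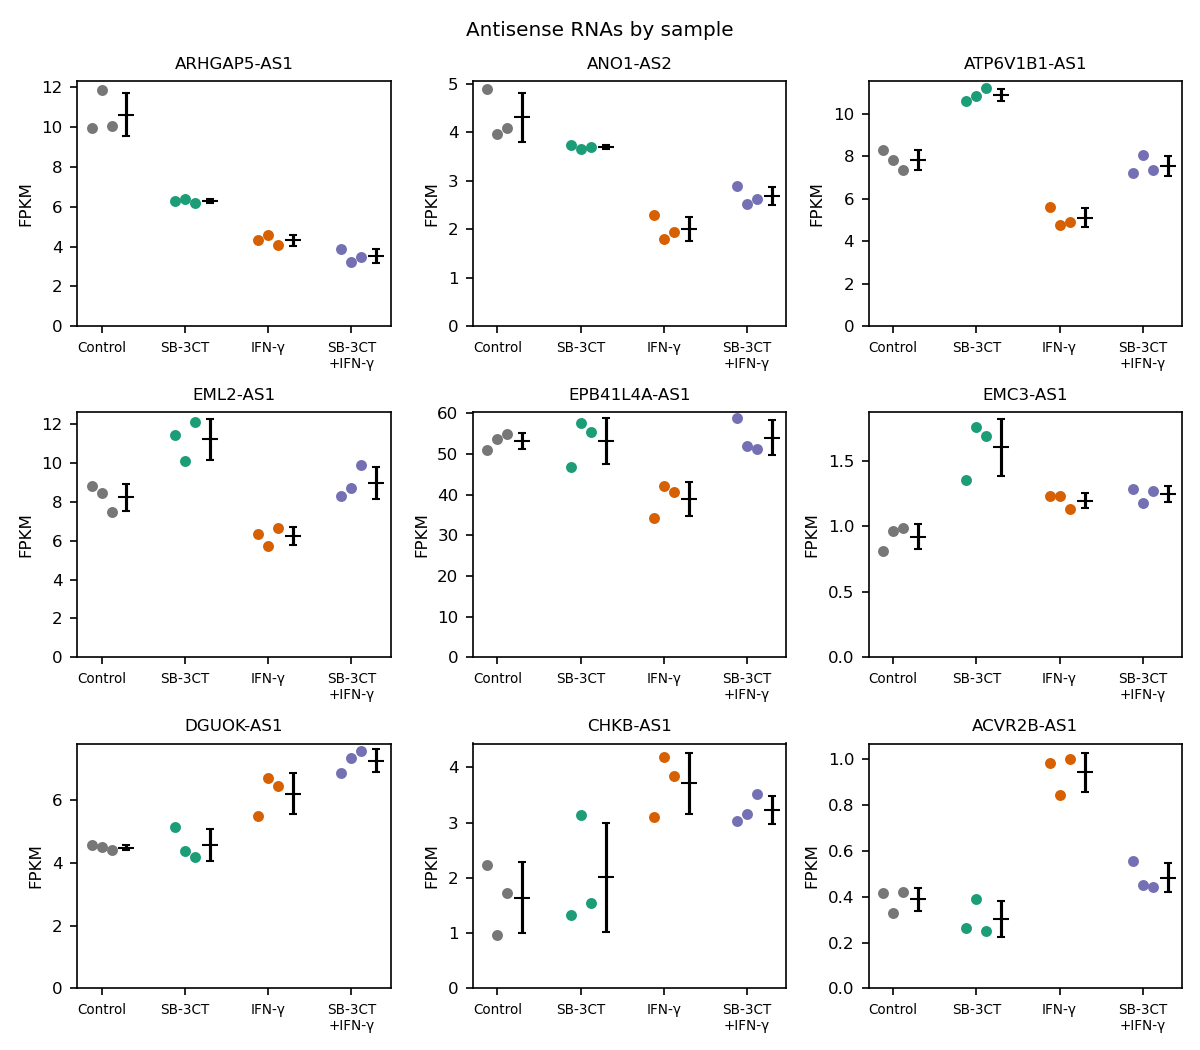
FPKM of 9 antisense RNAs in each of the 12 samples (points), with the group mean and SD beside them, by treatment, each vertical axis starting at 0. ARHGAP5-AS1 is highest in the controls, ATP6V1B1-AS1 and EML2-AS1 are highest with SB-3CT and lowest with IFN-γ, and ACVR2B-AS1 is highest with IFN-γ alone.

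The comparison of SB-3CT+IFN-γ with SB-3CT gave the effect of IFN-γ in inhibited cells. It changed 23 of the 145 antisense RNAs, 8 higher and 15 lower, or 15.9% against 40.5% of all genes tested (7.85% higher and 32.7% lower). The split was 7 and 5 under median ratio scaling and 7 and 8 with quantile normalization. The sense genes had 7 higher and 60 lower, against 14 and 25 under median ratio scaling and 11 and 35 with quantile normalization. The samples did not overlap for 32 of the 145, 9 higher and 23 lower, against 51.7% of all genes (9.84% higher and 41.9% lower). Without SB-3CT+IFN-γ 3 the count of calls was 14.

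ARHGAP5-AS1 fell again, by 0.69 ± 0.07 (SE, adjusted p = 0.0012), to 3.88, 3.23 and 3.47 FPKM, and ARHGAP5 changed by -0.20 (adjusted p = 0.31). ATP6V1B1-AS1 fell by 0.48 (adjusted p = 0.0017). CKMT2-AS1, named for a creatine kinase of muscle mitochondria that was near 0 here, fell by 0.60 (adjusted p = 0.011), from 2.42, 2.26 and 3.00 FPKM to 1.26, 1.14 and 1.67 FPKM, a call lost under median ratio scaling (-0.43, adjusted p = 0.054). ELFN1-AS1 fell by 0.44 (adjusted p = 0.0091), a call lost under median ratio scaling (-0.20, adjusted p = 0.13). DGUOK-AS1 rose by 0.57 ± 0.08 (SE, adjusted p = 0.0033), to 6.86, 7.35 and 7.58 FPKM from 5.14, 4.39 and 4.19 FPKM, without overlap, and DGUOK changed by 0.01 (adjusted p = 0.87). CARD8-AS1 (0.52, adjusted p = 0.034), CBR3-AS1 (0.41, adjusted p = 0.015), CFAP58-AS1 (0.40, adjusted p = 0.0098) and AGAP2-AS1 (0.28, adjusted p = 0.027) rose too. With any sample left out, the calls of ARHGAP5-AS1, ATP6V1B1-AS1, CKMT2-AS1, ELFN1-AS1, DGUOK-AS1 and CFAP58-AS1 held. That of CBR3-AS1 was lost without SB-3CT+IFN-γ 3 (adjusted p = 0.054), and those of CARD8-AS1 and AGAP2-AS1 without any sample of SB-3CT+IFN-γ and some of SB-3CT (adjusted p up to 0.111 and 0.0848).

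Some smaller falls came with falls of the sense gene, and 43.8% of all sense genes were called lower in this comparison. DHRS4-AS1 fell by 0.38 (adjusted p = 0.028) without a call of DHRS4, a call lost under median ratio scaling (adjusted p = 0.16). ANO1-AS2 fell by 0.35 (adjusted p = 0.0086) and ANO1 by 0.90 (adjusted p = 0.00044). BAIAP2-AS1, a divergent transcript whose start lies 241 bases from that of BAIAP2, a gene of actin organisation, fell by 0.31 (adjusted p = 0.0072) and BAIAP2 by 0.59 (adjusted p = 0.0013). EML2-AS1 fell by 0.29 (adjusted p = 0.041) and EML2 by 0.40 (adjusted p = 0.0072). Under median ratio scaling the calls of ANO1-AS2 (adjusted p = 0.14), BAIAP2-AS1 (0.081) and EML2-AS1 (0.72) were lost, and so was that of EML2 (-0.15, adjusted p = 0.18). The call of EML2-AS1 was also lost without SB-3CT 1 or 3 or SB-3CT+IFN-γ 1 or 2. ACVR2B-AS1 rose by 0.19 (adjusted p = 0.037) while ACVR2B fell by 0.21 (adjusted p = 0.033). The call of ACVR2B-AS1 was lost without any 1 sample but SB-3CT 2 (adjusted p up to 0.111), and that of ACVR2B without the same samples and under both other scalings (adjusted p up to 0.203).

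BOLA3-AS1 moved against its sense gene. The RNA was 4.28, 4.76 and 3.52 FPKM with SB-3CT and 2.58, 2.72 and 2.65 FPKM with SB-3CT+IFN-γ (-0.50 ± 0.10, SE, adjusted p = 0.011). BOLA3, a gene of iron-sulfur cluster assembly in mitochondria, was 201, 215 and 214 FPKM and then 299, 309 and 307 FPKM (0.54 ± 0.04, SE, adjusted p = 0.00042). Neither set overlapped, and the call of BOLA3-AS1 was lost under median ratio scaling (-0.30, adjusted p = 0.080). The pair is divergent, and BOLA3-AS1 shares no exon base with any annotated gene. Its start sites lie 69 bases apart in RefSeq, and the window of BOLA3-AS1 (GRCh38.p14, chr2:74147731-74148030, plus strand) is shown with the 70 bases from start to start in capitals.
BOLA3-AS1: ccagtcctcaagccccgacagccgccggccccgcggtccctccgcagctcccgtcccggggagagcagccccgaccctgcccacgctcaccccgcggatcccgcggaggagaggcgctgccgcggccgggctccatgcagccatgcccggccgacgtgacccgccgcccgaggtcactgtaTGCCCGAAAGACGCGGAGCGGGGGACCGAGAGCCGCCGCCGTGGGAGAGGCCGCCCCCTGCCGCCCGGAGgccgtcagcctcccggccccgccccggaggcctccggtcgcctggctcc

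Pairs with both members called were counted over all pairs. With SB-3CT 3 of 140 pairs were called in the same direction and 0 in opposite directions, with IFN-γ 4 and 1, with SB-3CT+IFN-γ against IFN-γ 5 and 2, and with SB-3CT+IFN-γ against SB-3CT 9 and 2. In the same comparisons the antisense RNA alone was called in 4, 13, 6 and 12 pairs and the sense gene alone in 23, 24, 60 and 57. Of all sense genes 19%, 21.2%, 48.2% and 48.9% were called, so some unrelated pairs would have both members called too. The number of such pairs was not computed. The signs of the changes, called or not, were the same in 67, 69, 85 and 88 of the 140 pairs. In SB-3CT+IFN-γ against IFN-γ and against SB-3CT only 16.79% and 18.25% of the sense genes and 40.69% and 35.86% of the antisense RNAs changed by more than 0. With most values of both kinds below 0, many unrelated pairs would share a sign too, and their expected number was not computed. Opposite calls came from DGUOK-AS1 with IFN-γ, EPB41L4A-AS1 and ANO1-AS2 in SB-3CT+IFN-γ against IFN-γ, and ACVR2B-AS1 and BOLA3-AS1 in SB-3CT+IFN-γ against SB-3CT. None of these 5 pairs kept both calls under median ratio scaling or quantile normalization, since DGUOK, EPB41L4A, ANO1, ACVR2B and BOLA3-AS1 were not called there. Under median ratio scaling the counts in the same and in opposite directions were 3 and 0, 5 and 1, 5 and 0, and 4 and 0, the opposite pair being that of EMC3-AS1 with IFN-γ. With quantile normalization they were 2 and 0, 5 and 0, 5 and 1, and 4 and 0, the opposite pair being that of EIF3J-AS1 in SB-3CT+IFN-γ against IFN-γ. Of the 42 pairs with starts within 1000 bases in GENCODE, 0 had both members called with IFN-γ and 1 with SB-3CT. In SB-3CT+IFN-γ against IFN-γ 2 were called in the same direction and 0 in opposite directions. In SB-3CT+IFN-γ against SB-3CT 4 were called in the same direction and 2 in opposite directions. The pair of CHKB-AS1 and CHKB, both called higher with IFN-γ, is not among the 42, although its starts lie close together in RefSeq.

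**Figure D4:**
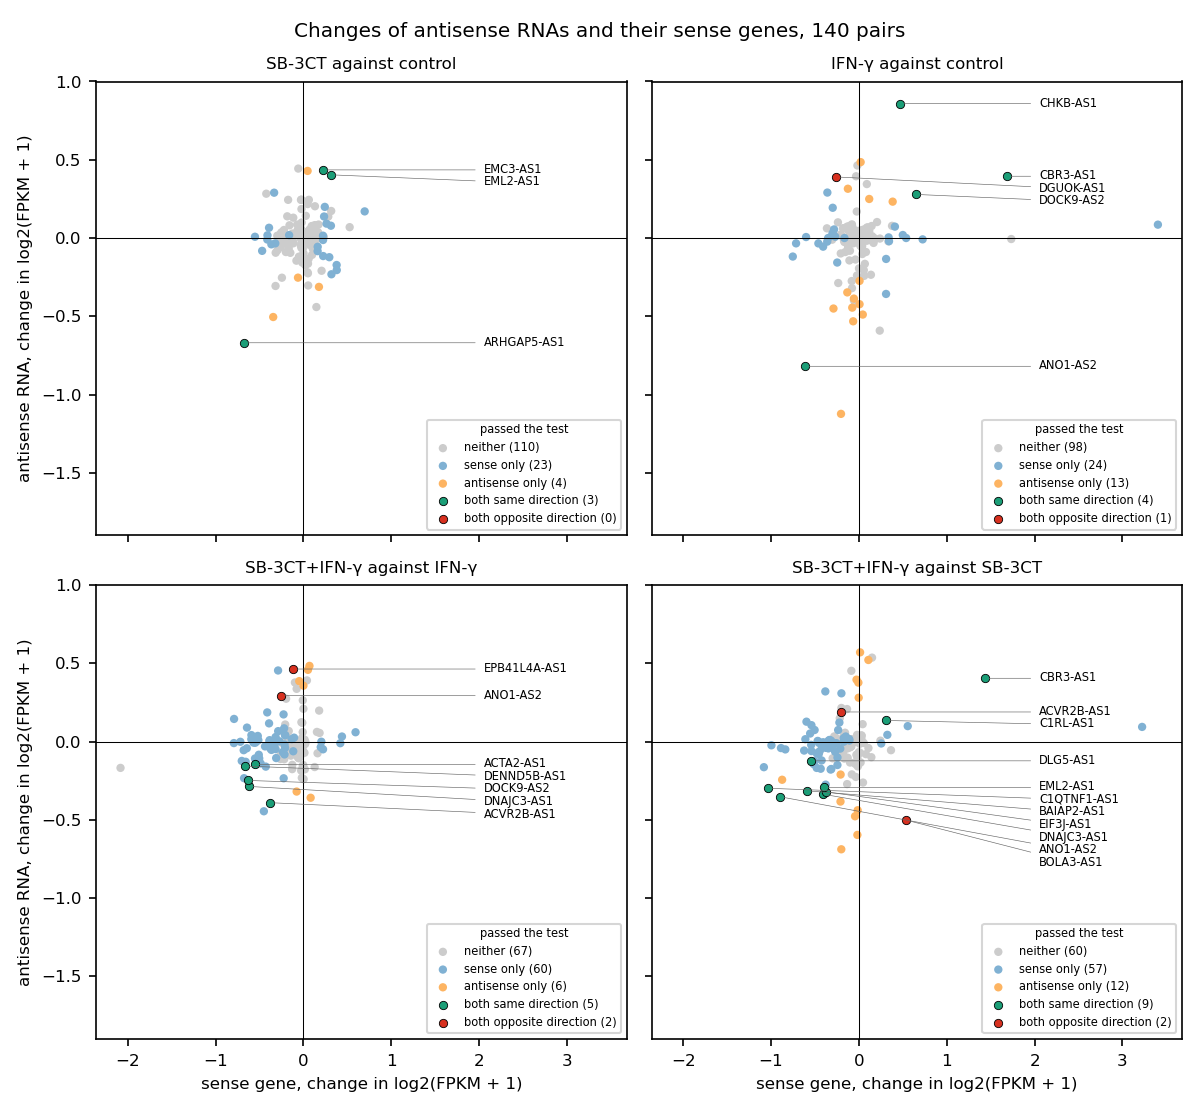
Change in log2(FPKM + 1) of each antisense RNA (vertical axes) against that of its sense gene (horizontal axes) for 140 pairs in the 4 comparisons, coloured by which member passed the test. Named pairs had both members called. In the lower panels the sense genes lie mostly left of 0, and 40.69% (against IFN-γ) and 35.86% (against SB-3CT) of all antisense RNAs changed by more than 0.

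The interaction, fitted over all 12 samples, asked whether the effect of SB-3CT differed with and without IFN-γ. It was called for 7 of the 145 antisense RNAs, 3 higher and 4 lower, or 4.83% against 22.3% of all genes tested (4.74% higher and 17.6% lower), and for 40 of the 137 sense genes, 5 higher and 35 lower. ARHGAP5-AS1 had an interaction of 0.44 ± 0.11 (SE, adjusted p = 0.020). SB-3CT lowered it by 0.67 without IFN-γ, and the change with IFN-γ was -0.23 (adjusted p = 0.079). EPB41L4A-AS1 (0.47, adjusted p = 0.026) and ANO1-AS2 (0.47, adjusted p = 0.021) were raised by SB-3CT in the presence of IFN-γ, with no called change without it. EMC3-AS1 went the other way (-0.40, adjusted p = 0.017), and ACVR2B-AS1 too (-0.29, adjusted p = 0.023). The sense gene EMC3 had a called interaction of the opposite sign to EMC3-AS1 (0.22, adjusted p = 0.024). That call of EMC3 was lost without control 2, SB-3CT 3, IFN-γ 1 or SB-3CT+IFN-γ 3 (adjusted p up to 0.0611). No interaction was called for ATP6V1B1-AS1 (0.06 ± 0.10, SE, adjusted p = 0.74) or EML2-AS1 (0.06 ± 0.12, SE, adjusted p = 0.80). Without IFN-γ 3 the interactions of ARHGAP5-AS1 and ANO1-AS2 were lost (adjusted p = 0.052 for both), that of EPB41L4A-AS1 was lost without control 2 or 3, SB-3CT 1, IFN-γ 1 or SB-3CT+IFN-γ 1 (adjusted p up to 0.059), and that of ACVR2B-AS1 without control 2, IFN-γ 1 or 3 or SB-3CT+IFN-γ 2 or 3 (adjusted p up to 0.061). That of EMC3-AS1 held with any sample left out, but not under median ratio scaling (adjusted p = 0.13), where that of ACVR2B-AS1 was lost too (adjusted p = 0.085). Under median ratio scaling 3 interactions were called, all higher, and with quantile normalization 4, all higher.

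With 3 samples against 3 an exact permutation test cannot give a two-sided p-value below 0.1, and it gave 0.1 for ARHGAP5-AS1, CHKB-AS1 and ANO1-AS2 between IFN-γ and control.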

How the data were processed

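RNA of A375 cells was sequenced as 150-base paired-end reads in 12 samples (4 groups of 3). Per the submitters' processing notes, the authors aligned reads to hg19 with HISAT2 2.0.5 and calculated FPKM with StringTie 1.3.3. The annotation, the strand setting and the depth are not given in the sources used here. The deposited values are log2(FPKM + 1) and were used as such, and 0 columns of sample values were left unused. FPKM was taken back from them with the pseudocount of 1.

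Each comparison was fitted with limma 3.58.1 in R 4.3.3 (lmFit, eBayes with trend) to its 3 + 3 samples, unpaired, over 4918 genes with Benjamini-Hochberg adjustment, and the interaction to all 12. The functions were tested on simulated data. Members and lists were chosen with earlier results of these data known. Named antisense RNAs are the 10 with the highest mean, up to 5 largest rises and 5 largest falls per comparison and interaction (adjusted p below 0.05, mean above 0.5 FPKM), their sense genes, 2 on either side of 1 FPKM, and CXCL10 and CD274. Positions came from GENCODE release 44 on GRCh37, and promoter windows from RefSeq. Relative depth came from steps in low FPKM values. Alternatives were a pseudocount of 0.1, a mean of at least 1 FPKM, median ratio scaling, quantile normalization, a fit over all 4 groups, a block for the replicate number, leaving out each sample, and a fold change over 1.5 with unadjusted p below 0.05. The fold change is that of FPKM + 1, not of FPKM, and this limit was applied to counts only. Replicate numbers were taken as names only. A search for sequence motifs in the promoter windows is not reported here.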

Additional observations from a re-analysis of the deposited data

Results flagged for a closer look

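For 7 antisense RNAs the effect of SB-3CT differed between cells with and without IFN-γ by the interaction term of limma over 12 samples (adjusted p below 0.05). The interaction was -0.40 for EMC3-AS1, -0.38 for DOCK9-AS2, -0.31 for C1QTNF1-AS1, -0.29 for ACVR2B-AS1, 0.44 for ARHGAP5-AS1, 0.47 for ANO1-AS2 and 0.47 for EPB41L4A-AS1. DOCK9-AS2 and C1QTNF1-AS1 lay below 0.5 FPKM and are named after their values were seen. DOCK9-AS2 was 0.175, 0.0710 and 0.0956 FPKM in the controls, 0.250, 0.415 and 0.391 FPKM with IFN-γ and 0.0327, 0.182 and 0.205 FPKM with SB-3CT+IFN-γ, and its divergent sense gene DOCK9, an exchange factor for Cdc42, had an interaction of the same sign (-0.51, adjusted p = 0.036). The interactions of DOCK9-AS2, DOCK9 and C1QTNF1-AS1 were lost under median ratio scaling and quantile normalization (adjusted p up to 0.0626 for DOCK9-AS2 and 0.0627 for C1QTNF1-AS1), that of DOCK9-AS2 also without control 2 or IFN-γ 3, and that of C1QTNF1-AS1 without any 1 sample but SB-3CT 2 or IFN-γ 3. C1QTNF1-AS1 was listed at 0 in the 3 samples given SB-3CT+IFN-γ.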

How the results depend on the processing

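Called changes of antisense RNAs were followed one by one, 60 in all. They were those picked by the naming rule or named after their values were seen. Of these, 14 kept their direction and stayed past the threshold under every alternative tried for single RNAs, and none turned. These alternatives did not include the fold change limit with unadjusted p, which was applied to counts only. At that limit 0 antisense RNAs were called in SB-3CT+IFN-γ against IFN-γ. Among the sense genes ANO1 turned in SB-3CT+IFN-γ against IFN-γ with quantile normalization (0.013) and CTBP1 in SB-3CT+IFN-γ against SB-3CT with median ratio scaling (0.015), neither past the threshold there. The cause was not tested. The smallest changes, and any loss of a low RNA, are limited by 3 samples a group and by depth that is known only in relative terms.

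With each sample left out in turn, the antisense RNAs called numbered 1 to 9 with SB-3CT, 7 to 14 with IFN-γ, 7 to 11 and 14 to 23 with SB-3CT+IFN-γ against IFN-γ and against SB-3CT, and 3 to 8 in the interaction, where control 2 (4 without it) and IFN-γ 3 (3 without it) mattered most. The sense genes called numbered 1 to 39, 16 to 28, 46 to 69 and 52 to 63 in the 4 comparisons. The shares of all genes called in these fits are not given. The count above 1 FPKM was 34 to 35, and 23 at a limit of 2 FPKM.

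At a fold change over 1.5 with unadjusted p below 0.05 the antisense RNAs called numbered 1, 3, 0 and 2 in the 4 comparisons (main counts 7, 18, 13 and 23; unadjusted p below 0.05 in limma alone, 15, 26, 26 and 30) and 1 in the interaction, and the sense genes 2, 9, 15 and 12. This fold change was taken on FPKM + 1, not on FPKM. Low RNAs could therefore miss the limit although their FPKM changed by more, as did ACVR2B-AS1 in SB-3CT+IFN-γ against IFN-γ. Restricting the fit to a mean of at least 1 FPKM gave 14 antisense RNAs in SB-3CT+IFN-γ against SB-3CT and 4 in the interaction, with fewer genes tested. Median ratio scaling gave 12 and 3, quantile normalization 15 and 4. Sense genes numbered 39 in SB-3CT+IFN-γ against SB-3CT under median ratio scaling and 40 in SB-3CT+IFN-γ against IFN-γ with quantile normalization. The median ratios were 0.865 to 0.874 in the SB-3CT+IFN-γ samples and 0.987 to 1.09 in the others.

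Replicate numbers are shared between groups, and whether they pair the samples could not be settled. The correlations of same-numbered deviations from the group mean ran from -0.39 to 0.17. Of 6 samples per comparison 4, 4, 2 and 0 correlated best with their own number. With so few samples a group this check is weak. With the replicate number as a block the antisense RNAs called were 3 with SB-3CT, 10 with IFN-γ, 15 in SB-3CT+IFN-γ against SB-3CT and 11 in the interaction, and the sense genes 12 with SB-3CT.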

Other observations

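Further antisense RNAs are named here after their values were seen. In the comparisons given for DNAJC3-AS1 and EIF3J-AS1, 31.5% and 32.7% of all genes were called lower, so falls of sense genes were common there. DNAJC3-AS1, a divergent transcript, was 0.558, 0.490 and 0.294 FPKM with IFN-γ and 0.107, 0.221 and 0.226 FPKM with SB-3CT+IFN-γ (-0.29, adjusted p = 0.022 in limma). Its sense gene DNAJC3, a co-chaperone of the endoplasmic reticulum, fell by 0.62 (adjusted p = 0.0021). The call of DNAJC3-AS1 was lost under median ratio scaling (adjusted p = 0.058), quantile normalization (0.062) and without any 1 sample but IFN-γ 3 (up to 0.0985). EIF3J-AS1, also divergent and at a mean of 4.05 FPKM, fell in SB-3CT+IFN-γ against SB-3CT by 0.32 (adjusted p = 0.031), and EIF3J, a translation initiation factor subunit, by 0.37 (adjusted p = 0.013). Both calls were lost under median ratio scaling (-0.11, adjusted p = 0.48 for EIF3J-AS1) and quantile normalization, and that of EIF3J-AS1 without any 1 sample but SB-3CT 1. C1RL-AS1, named for a gene related to complement C1r, rose with IFN-γ from 0.158, 0.124 and 0.184 FPKM to 0.409, 0.286 and 0.377 FPKM (0.23, adjusted p = 0.014, lost without control 1 or 2 or IFN-γ 3), and C1RL was not called (0.38, adjusted p = 0.093).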
